A study of Mus musculus with 16 samples.

Results

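RNA from 10 genes that mark mast cells or neutrophils was followed in the inguinal white adipose tissue (iWAT, the fat pad under the skin of the groin) of mice of 4 genotypes. The genes were taken by name, 6 for mast cells (Mcpt4, Cma1, Tpsb2, Cpa3, Fcer1a and Ms4a2) and 4 for neutrophils (S100a8, S100a9, Retnlg and Csf3r), from the 54752 genes of the count table, and all 10 passed the filter on low counts that left 19736 genes to test. The 16 libraries, 4 of each genotype, came from mice labelled female, aged 90 days and of the C57BL/6 strain (C57BL/6J in the study's methods). WT mice carried neither mutation. Lepob/+ mice had 1 copy of the ob allele, which makes no working leptin, beside 1 working copy of Lep. SOD1G93A mice, used as a model of amyotrophic lateral sclerosis, carried a mutant human SOD1 transgene at high copy number beside their own Sod1. SOD1G93A-Lepob/+ mice carried both. The study set these genotypes against each other to learn what the SOD1 transgene and the loss of 1 leptin copy each do to this fat depot, and what the leptin loss does in transgenic mice. Libraries are named by genotype and replicate number below, and p-values measure the spread between these libraries.

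The mast cell proteases were highest on average in SOD1G93A-Lepob/+ iWAT. There all 4 libraries of each protease lay above all 4 WT libraries, a pattern shown by 1.98% of all genes tested. On the log2 scale the proteases differed from WT by 0.64 to 0.86, and none passed the adjusted threshold in the edgeR test across all genes. The proteases varied together from library to library, while Ms4a2 followed them only weakly. Fcer1a and Ms4a2 had low counts, 5 to 43 a library, as did S100a8, S100a9 and Retnlg at 0 to 119. The 4 neutrophil genes did not follow each other as a group.

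Mast cells are resident immune cells of connective tissue, fat included, whose granules hold proteases bound to heparin. When an antigen crosslinks IgE on the high-affinity IgE receptor at their surface, the granules are released. Neutrophils circulate in blood and enter tissue on injury or infection, so a depot at rest holds few of them. In bulk tissue, fewer cells of a type and less RNA per cell cannot be told apart.

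The libraries held between 36795376 and 61886313 counts each. Values below are counts per 1000000 counts of a library (CPM), scaled by the trimmed mean of M-values (TMM). Adipocyte genes (Adipoq, Plin1, Cidec, Fabp4, Lipe and Lep) summed to between 9701 and 21681 CPM in every library, so the tissue carried its defining markers. Lymph node stroma and high endothelial venule genes split the libraries into 6 rich ones (WT replicates 1 and 2, Lepob/+ replicate 3 and SOD1G93A replicates 1, 2 and 4, at 518 to 1126 CPM summed) and 10 poor ones (5.24 to 47.4 CPM), and all SOD1G93A-Lepob/+ libraries were poor in them. Skeletal muscle genes summed to 213283 CPM in Lepob/+ replicate 4 and to 5425 CPM in WT replicate 3. The library labelled SOD1G93A-Lepob/+ replicate 3 had 0 Xist counts and 1756 counts of Y-linked genes, against its label as female.

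Mcpt4 and Cma1 belong to the chymase family, and Mcpt4 cuts proteins after aromatic residues. Tpsb2 is a tryptase, and Cpa3 is a carboxypeptidase stored in the same granules. Fcer1a encodes the IgE-binding alpha chain of the high-affinity IgE receptor, and Ms4a2 its beta chain, which amplifies the signal. In the GRCm38 annotation, Mcpt4 (ENSMUSG00000061068) lies at chr14:56059629-56062313 and Cma1 (ENSMUSG00000022225) at chr14:55941451-55944675, both on the minus strand. Tpsb2 (ENSMUSG00000033825) lies at chr17:25366305-25369098 on the plus strand. Cpa3 (ENSMUSG00000001865) at chr3:20215620-20242181, Fcer1a (ENSMUSG00000005339) at chr1:173221284-173227214 and Ms4a2 (ENSMUSG00000024680) at chr19:11615523-11623719 lie on the minus strand, with the microRNA gene Mir7007 inside Cpa3 on the same strand. Each member is protein coding, and at most 0.406% of the 100-base windows of any member's transcripts recurred in another gene, so few reads could be shared with a near copy.

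The promoters of the mast cell genes are shown because GATA factors, Gata2 among them, are known regulators of mast cell genes. RefSeq gave a promoter of 300 bases (250 before to 50 after the start of the transcript, assembly GRCm38.p6) for 9 of the 10 genes, all but Tpsb2. Hexamers of the GATA type (AGATAA and its variant AGATAG, or else TGATAA and its variant TGATAG, searched on both strands) occurred in the promoters of 5 of 5 mast cell genes, and in 29.8% of the 32851 mouse promoters of that length. They began 103 bases before the start in Mcpt4, 79 in Cma1, 46 in Cpa3, 92 in Fcer1a, and 224, 37 and 11 in Ms4a2. The stretch from 130 bases before to 20 after the start of each gene is given 5′ to 3′ on the gene's strand, with the hexamers in capitals, where those on the other strand read TTATCT in Fcer1a and Ms4a2 and CTATCT in Cma1. The windows are chr14:56062291-56062440 for Mcpt4, chr14:55944656-55944805 for Cma1, chr3:20242162-20242311 for Cpa3, chr1:173227210-173227359 for Fcer1a and chr19:11623700-11623849 for Ms4a2, all on the minus strand.
Mcpt4: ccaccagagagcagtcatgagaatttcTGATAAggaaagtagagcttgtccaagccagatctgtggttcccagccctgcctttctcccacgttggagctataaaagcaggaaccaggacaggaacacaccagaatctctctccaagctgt
Cma1: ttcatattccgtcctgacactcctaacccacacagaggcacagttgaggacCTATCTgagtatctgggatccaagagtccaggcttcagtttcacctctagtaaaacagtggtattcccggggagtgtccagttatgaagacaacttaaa
Cpa3: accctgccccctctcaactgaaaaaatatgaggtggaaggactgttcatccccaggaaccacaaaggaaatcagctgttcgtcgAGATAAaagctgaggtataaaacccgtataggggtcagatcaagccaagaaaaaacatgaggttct
Fcer1a: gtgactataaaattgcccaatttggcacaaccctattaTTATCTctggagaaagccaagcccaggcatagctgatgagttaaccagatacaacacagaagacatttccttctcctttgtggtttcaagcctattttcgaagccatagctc
Ms4a2: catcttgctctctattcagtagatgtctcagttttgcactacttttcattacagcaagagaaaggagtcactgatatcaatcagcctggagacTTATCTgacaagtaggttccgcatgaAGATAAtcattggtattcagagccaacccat
The Ms4a2 window holds 2 of its 3 hexamers. The E-box of the mast cell factor Mitf (CATGTG, searched also as CACGTG) occurred in 1 of 5 mast cell promoters, in Fcer1a, and in 20.4% of all promoters. Of the 4 neutrophil promoters, 2 (S100a9 and Retnlg) held the C/EBP motif TTGCNNAA, found in 10.8% of all, and 2 (S100a8 and Csf3r) held the PU.1 motif GAGGAA, found in 28.3%. GATA hexamers occurred in 2 of these 4 promoters as well, and the E-box in 1, that of S100a8. Of the 5 mast cell promoters, 1 (Fcer1a) held both the C/EBP and the PU.1 motif. A match is a description of the letters in the window, and no factor's binding was measured.

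Per length of transcript, the proteases were the most abundant of the 10 genes. Mean levels over the 16 libraries were 29.7 CPM per kilobase for Mcpt4, 24.5 for Cma1, 16.6 for Tpsb2 and 12.8 for Cpa3. The SD over libraries was 10.1, 8.52, 5.19 and 4.60 CPM per kilobase in the same order. Within each single library Cma1 exceeded Tpsb2 and Tpsb2 exceeded Cpa3. Mcpt4 exceeded Cma1 in all libraries but WT replicate 3, where they were at 15.08 and 15.12 CPM per kilobase. Csf3r followed at 2.63 ± 0.772 CPM per kilobase (SD, n = 16), then Retnlg at 2.08 ± 1.47, S100a9 at 1.22 ± 0.629 and S100a8 at 1.17 ± 0.714. Both receptor chains were lowest, Fcer1a at 0.670 ± 0.193 and Ms4a2 at 0.153 ± 0.100 CPM per kilobase. In no library did Csf3r reach the lowest level of Cpa3, 4.76 CPM per kilobase. The range of Csf3r began below the top of S100a8, S100a9 and Retnlg, so the order among these neutrophil genes was not fixed in single libraries. Mcpt1, Mcpt2 and Mcpt9, proteases of mucosal mast cells, had 0 counts in all 16 libraries, which allows up to 3 counts in each. The basophil protease Mcpt8 had at most 3 counts. The other gene listed for basophils, Prss34, passed the filter and was at 0.170 to 0.794 CPM, a level as low as that of the receptor chains.

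Mcpt4 was at 23.1, 31.5, 16.7 and 32.7 CPM in WT replicates 1 to 4, at 41.5, 41.1, 19.6 and 10.4 CPM in Lepob/+, at 34.0, 25.5, 38.4 and 33.6 CPM in SOD1G93A, and at 40.8, 47.0, 47.7 and 43.8 CPM in SOD1G93A-Lepob/+. Cma1 was at 15.1, 27.4, 16.5 and 26.3 CPM in WT, at 30.4, 34.2, 13.1 and 9.36 CPM in Lepob/+, at 26.9, 21.3, 33.7 and 26.4 CPM in SOD1G93A, and at 33.6, 38.5, 37.0 and 37.9 CPM in SOD1G93A-Lepob/+. For both chymases, every SOD1G93A-Lepob/+ library was above every WT library, a pattern shown by 1.98% of all genes tested. The Lepob/+ libraries of both fell into a high pair (replicates 1 and 2) and a low pair (replicates 3 and 4). Tpsb2 was at 20.2, 27.2, 16.4 and 26.8 CPM in WT, at 34.5, 35.1, 15.7 and 11.9 CPM in Lepob/+, at 24.6, 17.8, 28.1 and 23.7 CPM in SOD1G93A, and at 31.3, 37.9, 35.6 and 36.1 CPM in SOD1G93A-Lepob/+. Cpa3 was at 10.7, 18.5, 10.05 and 19.1 CPM in WT, at 24.3, 22.3, 11.2 and 7.23 CPM in Lepob/+, at 17.5, 14.5, 26.3 and 22.3 CPM in SOD1G93A, and at 22.3, 28.0, 27.0 and 29.0 CPM in SOD1G93A-Lepob/+. The tryptase and the carboxypeptidase also separated SOD1G93A-Lepob/+ from WT, with the lowest value of each gene in Lepob/+ replicate 4, the library rich in muscle RNA. Against SOD1G93A, the SOD1G93A-Lepob/+ libraries were higher without overlap for Mcpt4 and Tpsb2, as for 3.58% of all genes, and overlapped for Cma1 and Cpa3.

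**Figure D1:**
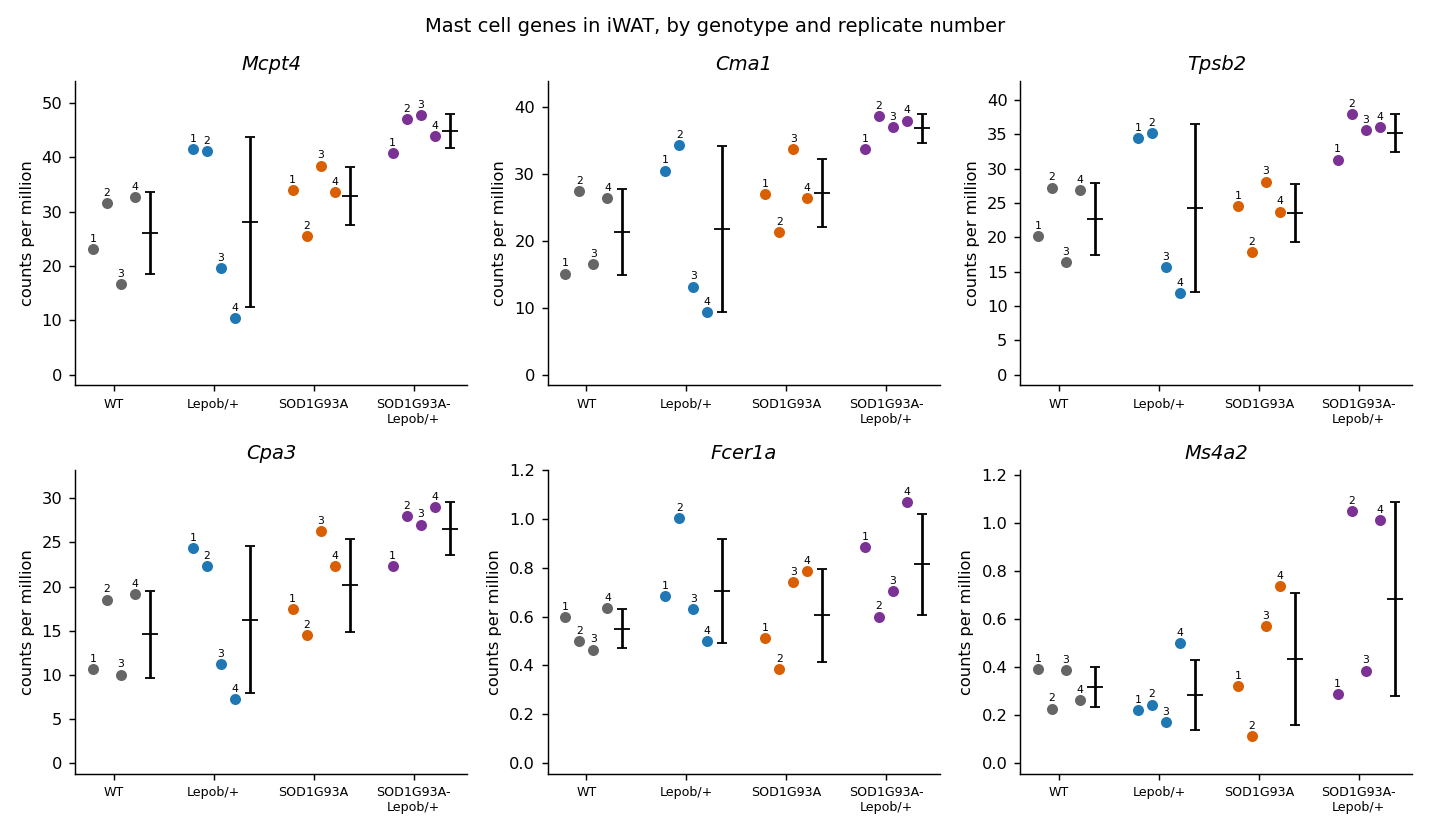
Level of each mast cell gene in CPM (vertical axis, linear) by genotype (horizontal axis), with 1 point per library labelled by its replicate number and bars for the mean ± SD of 4 libraries. The 4 SOD1G93A-Lepob/+ points of Mcpt4 sit between 40.8 and 47.7 CPM, above all WT points, while Lepob/+ spans 10.4 to 41.5 CPM.

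Spread within a genotype differed widely for the proteases. The coefficient of variation of Mcpt4 was 7.08% in SOD1G93A-Lepob/+, 16.5% in SOD1G93A, 28.9% in WT and 55.6% in Lepob/+, and that of Cma1 ran from 5.95% to 56.8% in the same order of genotypes. The summed level of the 4 proteases ranked SOD1G93A-Lepob/+ replicates 2, 3, 4 and 1 in places 1, 2, 3 and 6 of 16, at 151, 147, 147 and 128 CPM. Lepob/+ replicates 2 and 1 took places 4 and 5 at 133 and 131 CPM, and Lepob/+ replicates 3 and 4 were the lowest at 59.6 and 38.9 CPM. For none of the 10 genes did all 4 SOD1G93A-Lepob/+ libraries exceed all 12 others, a pattern shown by 0.106% of all genes tested.

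Against WT, SOD1G93A-Lepob/+ iWAT had log2 fold changes of 0.86 for Cpa3 (SE 0.35, 95% interval 0.12 to 1.61), 0.79 for Cma1 (SE 0.34, interval 0.05 to 1.52), 0.79 for Mcpt4 (SE 0.35, interval 0.04 to 1.53) and 0.64 for Tpsb2 (SE 0.30, interval -0.01 to 1.28). In edgeR's quasi-likelihood test the unadjusted p-values were 0.0252, 0.0385, 0.0400 and 0.0532 in that order, and each Benjamini-Hochberg adjusted p was 0.951. Of the 10 members, 3 had an unadjusted p under 0.05 in this comparison, all higher, where 4.74% of all genes tested did so in either direction and 1.22% were higher. The 4 proteases did not overlap between the genotypes, all higher, against 1.98% of all genes. Because the proteases varied together (Pearson's r of 0.94 to 0.97 over all libraries), neither count stands for separate results. DESeq2 fitted on these genotypes alone called Mcpt4 (adjusted p = 0.0463) and Cma1 (adjusted p = 0.0467), among 353 genes in all (1.22% of those it fitted), while edgeR called 0 of 19736 genes. With the lymph node genes as a covariate, the Mcpt4 value was 0.68 (SE 0.39, unadjusted p = 0.109), and among lymph node poor libraries, 2 of WT and 4 of SOD1G93A-Lepob/+, it was 0.85 (SE 0.52, unadjusted p = 0.138). The count of members with an unadjusted p under 0.05 fell to 0 without WT replicate 1, WT replicate 3 or SOD1G93A-Lepob/+ replicate 4, and to 1 without SOD1G93A-Lepob/+ replicate 2 or 3.

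Against each single mutant the protease values of SOD1G93A-Lepob/+ were positive, and none passed adjustment by edgeR over all 16 libraries. Against SOD1G93A the log2 fold changes were 0.58 for Tpsb2 (SE 0.30, unadjusted p = 0.0746, adjusted p = 0.342), 0.45 for Mcpt4 (SE 0.35), 0.44 for Cma1 (SE 0.34) and 0.40 for Cpa3 (SE 0.34), and none of these 4 had an unadjusted p under 0.05. Of the 10 members, 2 did not overlap, Mcpt4 and Tpsb2, both higher, against 3.58% of all genes. DESeq2 on these genotypes alone called Tpsb2 (adjusted p = 0.0173), among 1780 genes in all (6.06% of those it fitted). The voom fit of limma also called it (adjusted p = 0.0262), among 6212 genes (31.5%). Lists of genes of other cells were higher in the same comparison, with 10 of 10 macrophage genes (median 0.53 on the log2 scale), 6 of 6 fibroblast genes (0.57), 6 of 6 adipocyte genes (0.50) and 6 of 6 tested genes of mammary epithelium (0.91). Of the mammary epithelium genes, 5 had an unadjusted p under 0.05, where 4.19% of all genes were higher at that p. The part of these lists in the protease values was not tested. All 4 SOD1G93A-Lepob/+ libraries were poor in lymph node genes and 3 of 4 SOD1G93A libraries were rich in them. In the fit with these genes as a covariate the Tpsb2 value was 0.39 (SE 0.36, unadjusted p = 0.300). Against Lepob/+ the log2 fold changes were 0.75 for Cma1 (SE 0.34, unadjusted p = 0.0456), 0.71 for Cpa3 (SE 0.34), 0.67 for Mcpt4 (SE 0.35) and 0.53 for Tpsb2 (SE 0.30), and 0 of 10 members stood clear of Lepob/+, against 1.2% of all genes. Of the 10 members, 2 had an unadjusted p under 0.05 against Lepob/+, Cma1 and Ms4a2, where 8.24% of all genes did, and neither passed adjustment (adjusted p = 0.602 for each by edgeR). This count was 5 without Lepob/+ replicate 1, 4 without Lepob/+ replicate 2, and 1 without any one of WT replicates 1, 3 and 4, Lepob/+ replicates 3 and 4, SOD1G93A replicates 1 and 4 or any SOD1G93A-Lepob/+ library. The share of all genes in those refits is not given, so these counts cannot be read against it.

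Neither mutation alone moved the proteases beyond the spread between libraries. In Lepob/+ against WT the log2 fold changes of the 4 proteases lay between 0.03 and 0.16, with SEs of 0.30 to 0.35, and 0 of the 10 members had an unadjusted p under 0.05, where 4.37% of all genes did. In SOD1G93A against WT they lay between 0.06 for Tpsb2 and 0.46 for Cpa3 (SE 0.34, interval -0.27 to 1.20). Averaged over both Lep genotypes, the SOD1G93A transgene went with higher Cpa3 (0.59, SE 0.24, unadjusted p = 0.0303), Cma1 (0.55, SE 0.24, unadjusted p = 0.0400) and Ms4a2 (0.86, SE 0.40, unadjusted p = 0.0497), 3 of 10 members against 3.2% of all genes, with an adjusted p of 1.00 for each by edgeR. That count fell to 0 without WT replicate 1, WT replicate 3, Lepob/+ replicate 3, SOD1G93A replicate 3 or SOD1G93A replicate 4, and to 1 without SOD1G93A replicate 1 or SOD1G93A-Lepob/+ replicate 2 or 4. Averaged over both SOD1 genotypes, the Lepob/+ effect on the 6 mast cell genes lay between 0.23 and 0.39, and 0 members had an unadjusted p under 0.05, where 9.64% of all genes did. The interaction of both mutations, the amount by which the double mutant departs from the sum of the single ones, was between 0.24 and 0.48 for the proteases (SEs of 0.43 to 0.49), so that departures of up to 1.45 on the log2 scale for Cma1 stayed within the interval.

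**Figure D2:**
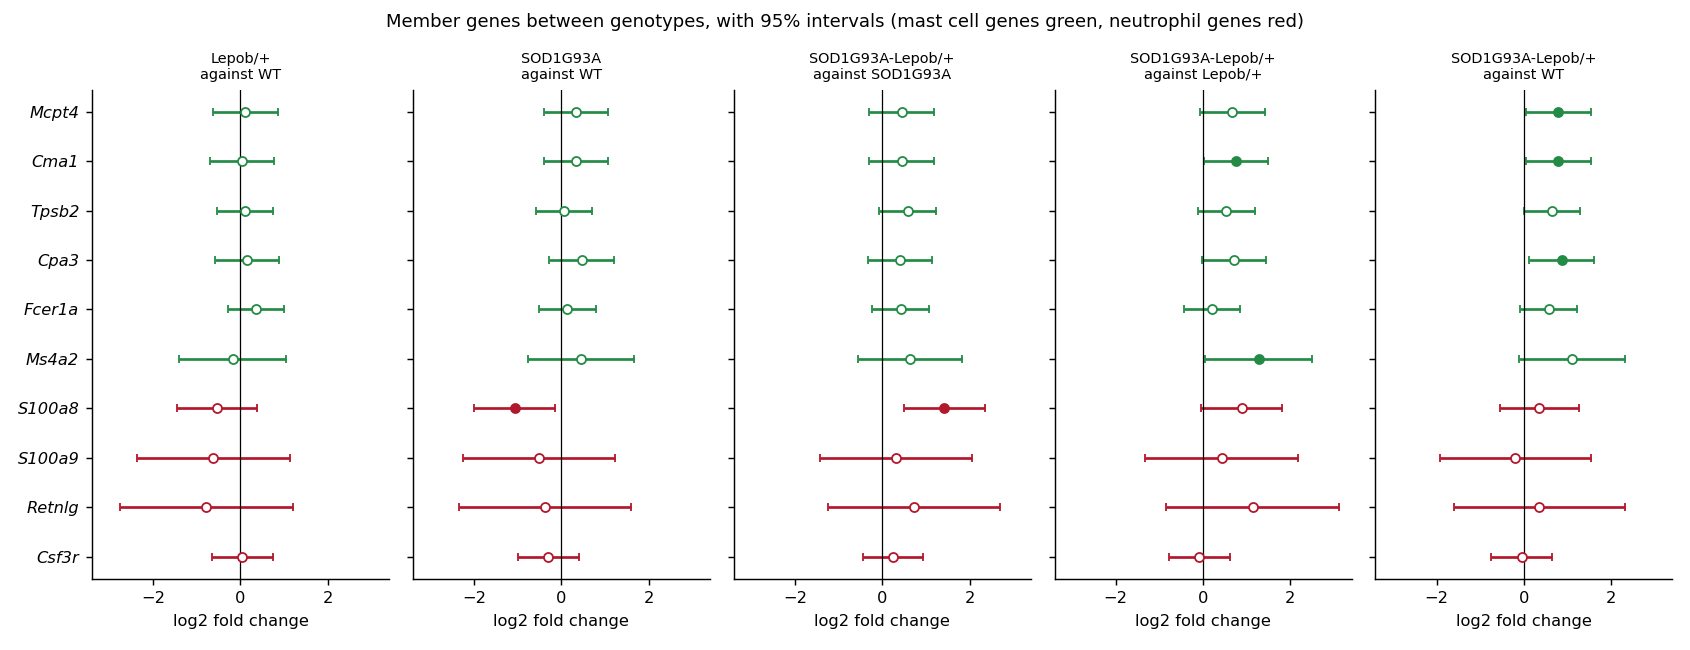
Log2 fold change (horizontal axis) of each member (vertical axis) in 5 comparisons of genotypes, with 95% intervals from edgeR's quasi-likelihood fit, mast cell genes in green and neutrophil genes in red, and filled points for an unadjusted p under 0.05. The 6 mast cell genes lie right of 0 in the comparison of SOD1G93A-Lepob/+ with WT, with 3 filled points, and S100a8 is filled on opposite sides of 0 in the comparisons of SOD1G93A with WT and of SOD1G93A-Lepob/+ with SOD1G93A.

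The receptor chains were far scarcer than the proteases. Fcer1a was at 0.598, 0.501, 0.465 and 0.635 CPM in WT, at 0.684, 1.00, 0.632 and 0.500 CPM in Lepob/+, at 0.512, 0.384, 0.742 and 0.785 CPM in SOD1G93A, and at 0.886, 0.600, 0.703 and 1.07 CPM in SOD1G93A-Lepob/+, from 15 to 43 counts a library. Ms4a2 was at 0.392, 0.228, 0.387 and 0.264 CPM in WT, at 0.221, 0.244, 0.170 and 0.500 CPM in Lepob/+, at 0.320, 0.113, 0.570 and 0.739 CPM in SOD1G93A, and at 0.288, 1.05, 0.385 and 1.01 CPM in SOD1G93A-Lepob/+, from 5 to 42 counts. All genotypes overlapped for both chains. SOD1G93A-Lepob/+ against WT gave 0.56 for Fcer1a (SE 0.30, interval -0.09 to 1.21) and 1.09 for Ms4a2 (SE 0.57, interval -0.12 to 2.30), and SOD1G93A-Lepob/+ against Lepob/+ gave 1.27 for Ms4a2 (SE 0.57, unadjusted p = 0.0430). In Ms4a2, replicates 2 and 4 of SOD1G93A-Lepob/+ and replicates 3 and 4 of SOD1G93A were high, and the remaining libraries of each lay within or below the range of WT and Lepob/+.

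Other genes of mast cells leaned the same way in the double mutant. Among 14 further mast cell genes, SOD1G93A-Lepob/+ exceeded WT in 12, where 51% of all genes did, and the median log2 fold change was 0.36 against 0.01 over all genes and 0.79 over the 6 members. Of these 14, 2 had an unadjusted p under 0.05, both higher, where 4.74% of all genes did in either direction and 1.22% were higher. Mrgprb1, a receptor of the family through which mast cells answer basic peptides, differed by 0.89 (SE 0.34, unadjusted p = 0.0199), and Hdc, which makes histamine, by 0.82 (SE 0.30, unadjusted p = 0.0168), each with an adjusted p of 0.951 by edgeR. Against Lepob/+, 13 of the 14 were higher (42.1% of all genes) and Mrgprb2 had the smallest p (1.03, SE 0.36, unadjusted p = 0.0127, adjusted p = 0.597). Against SOD1G93A, 12 of the 14 were higher (50.1% of all genes) and Rab27b, which tethers granules for release, had the smallest p (0.89, SE 0.39, unadjusted p = 0.0370, adjusted p = 0.280). Summed over the 14 genes, SOD1G93A-Lepob/+ libraries held 115 to 171 CPM, WT libraries 104 to 134, Lepob/+ libraries 104 to 142 and SOD1G93A libraries 94.9 to 124, so all genotypes overlapped. The mean of the 14 followed the proteases over the libraries (Pearson's r of 0.88 to 0.91). The counts of higher genes are therefore not separate from the protease results.

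Of 7 genes for mast cell growth and type 2 cytokines, 4 could be tested. Kitl, which encodes the stem cell factor that mast cells need to survive, was higher in SOD1G93A-Lepob/+ than in WT by 0.47 (SE 0.16, unadjusted p = 0.0101, adjusted p = 0.951), at 70.2 ± 9.49 CPM against 50.6 ± 6.95 CPM (SD, n = 4). Il3 and Il9 had 0 counts in all libraries and Il13 at most 7. Of 12 genes that carry the signal of the IgE receptor, 10 had a lower level in SOD1G93A-Lepob/+ than SOD1G93A, 6 of them with an unadjusted p under 0.05, against a share of 12.3% of all genes lower at that p. The smallest p-values among the 12 were those of the adaptor Lat (-5.36 on the log2 scale, SE 1.71), the adaptor Lat2 (-1.39, SE 0.52), the phosphatase Inpp5d (-1.13, SE 0.43) and the kinase Btk (-1.39, SE 0.54), with an adjusted p of 0.261 for each by edgeR. These 4 are also lymphocyte genes, and T cell genes summed to 14.8 to 1404 CPM in SOD1G93A and to 14.8 to 23.3 CPM in SOD1G93A-Lepob/+. Their part in the result was not tested.

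The 4 proteases varied together. Over the 16 libraries the log2 CPM of their 6 pairs correlated with Pearson's r of 0.94 to 0.97 and Spearman's rho of 0.93 to 0.97. Each permutation p was 1e-05, the smallest that 100000 permutations can give, with an adjusted p of 7.5e-05 for r over the 45 pairs of members. Without the 2 libraries farthest from the median r was 0.90 to 0.97, and on the deviations from the genotype means it was 0.95 to 0.98. Within the 10 lymph node poor libraries r was 0.97 to 0.99, and within the 6 rich ones 0.76 to 0.97. The ratio of counts of the chymases, Mcpt4 to Cma1, was 1.24 ± 0.134 (SD, n = 16), a coefficient of variation of 10.8%, against 33.9% for Mcpt4 itself. Fcer1a followed the proteases with r of 0.55 to 0.64 and rho of 0.63 to 0.73, with permutation p of 0.00803 to 0.0261 for r (adjusted 0.0329 to 0.0783) and 0.00185 to 0.0111 for rho (adjusted 0.0119 to 0.0389). Without 2 libraries r was 0.52 to 0.69. Within the lymph node poor libraries it was 0.69 to 0.71 and within the rich ones -0.15 to 0.15. Ms4a2 reached r of 0.20 to 0.32 with the proteases, and none of those 4 pairs had an adjusted permutation p under 0.05, at counts as low as 5. In all, 13 of 45 pairs passed.

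**Figure D3:**
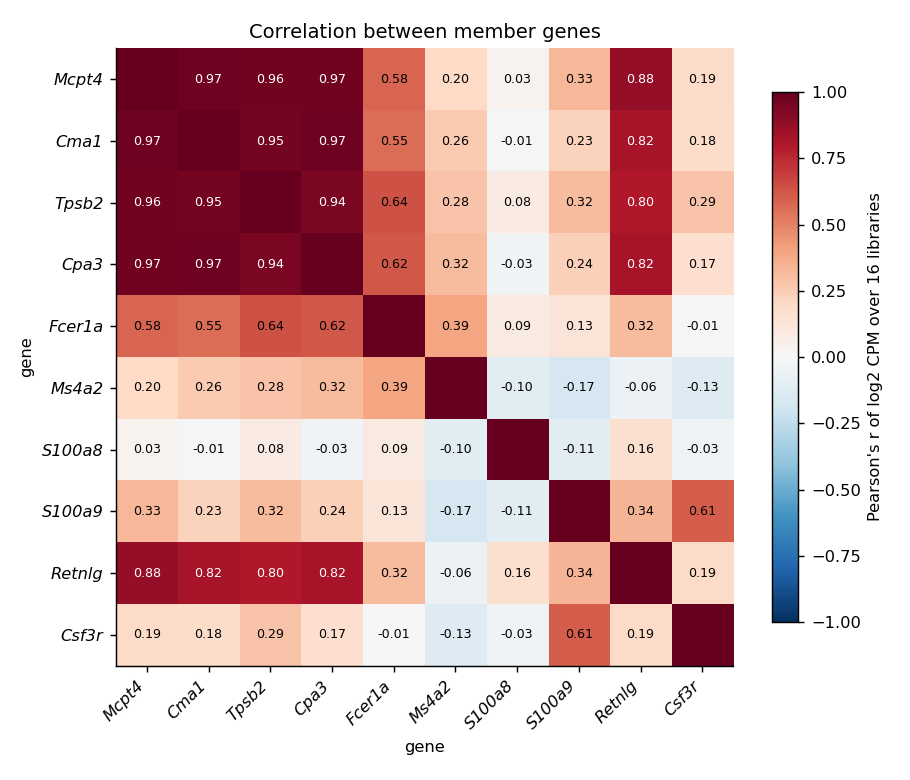
Pearson's r of log2 CPM over 16 libraries for each pair of the 10 genes, from blue (-1) through white (0) to red (1), with genes on both axes. The block of Mcpt4, Cma1, Tpsb2 and Cpa3 is at 0.94 to 0.97, Retnlg joins it at 0.80 to 0.88, and S100a8 shows no pair beyond 0.16 in size.

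Beyond the members, the gene whose log2 CPM was most like the mean of the 6 mast cell genes, among 19708 others, was A930012L18Rik (r = 0.91, n = 16 libraries, 0.103 to 1.18 CPM), followed by Mrgprb1 (r = 0.91), Arpin (r = 0.88), Mfsd14b (r = 0.88) and Spred1 (r = 0.87). The libraries compared share depth and tissue make-up, and these values describe them without a test. The proteases were also correlated with lists of genes, 200 relations of 10 members with 20 lists, of which 23 passed at an adjusted permutation p under 0.05. With the mean of the 14 further mast cell genes r was 0.88 to 0.91 and rho 0.84 to 0.90 (permutation p of 2e-05 to 0.00011 for r and 3e-05 to 0.00012 for rho, adjusted 0.00267 to 0.0044 for r and 0.003 to 0.0048 for rho), and 0.91 to 0.94 without 2 libraries. With fibroblast genes r was 0.71 to 0.80 and rho 0.71 to 0.76 (permutation p of 0.0003 to 0.00187 for r, adjusted 0.00925 to 0.0234, and of 0.00115 to 0.00329 for rho, adjusted 0.0329 to 0.0367). It was 0.67 to 0.78 without 2 libraries, 0.81 to 0.86 in the lymph node poor libraries and 0.80 to 0.87 in the rich ones. With the tested genes of mast cell growth and type 2 cytokines r was 0.74 to 0.75 and rho 0.64 to 0.70 (permutation p of 0.00061 to 0.00119 for r, adjusted 0.0134 to 0.0170, and of 0.00317 to 0.00941 for rho, adjusted 0.0367 to 0.0697), and r was 0.71 to 0.76 without 2 libraries. Macrophage genes gave r of 0.61 to 0.70 and rho of 0.61 to 0.72 (permutation p of 0.00275 to 0.0108 for r, adjusted 0.0324 to 0.0618, and of 0.00199 to 0.0144 for rho, adjusted 0.0367 to 0.0904), and r of 0.53 to 0.63 without 2 libraries, with 3 of the 4 proteases passing on r. Platelet genes gave r of 0.58 to 0.68 and rho of 0.62 to 0.75 (permutation p of 0.00375 to 0.0199 for r, adjusted 0.0417 to 0.0969, and of 0.00113 to 0.0117 for rho, adjusted 0.0329 to 0.0839), and r of 0.58 to 0.65 without 2 libraries, with 1 of the 4 passing on r. Fibroblast genes summed to 8940 to 15796 CPM in SOD1G93A-Lepob/+ and 4984 to 13818 CPM in WT, and all 6 were higher in the double mutant against both WT and SOD1G93A, with medians of 0.38 and 0.57. Their part in the protease values was not tested. With skeletal muscle genes r was -0.72 to -0.60 and rho -0.39 to -0.29 (permutation p of 0.00429 to 0.0158 for r, adjusted 0.0424 to 0.0834, and of 0.132 to 0.269 for rho, adjusted 0.366 to 0.518). Without 2 libraries it was -0.22 to -0.02, so that relation rested on those libraries. Leaving out both the muscle-rich Lepob/+ replicate 4 and the Xist-negative SOD1G93A-Lepob/+ replicate 3 raised the members with an unadjusted p under 0.05 in SOD1G93A-Lepob/+ against WT from 3 to 5, where 4.22% of all genes had one in that fit.

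**Figure D4:**
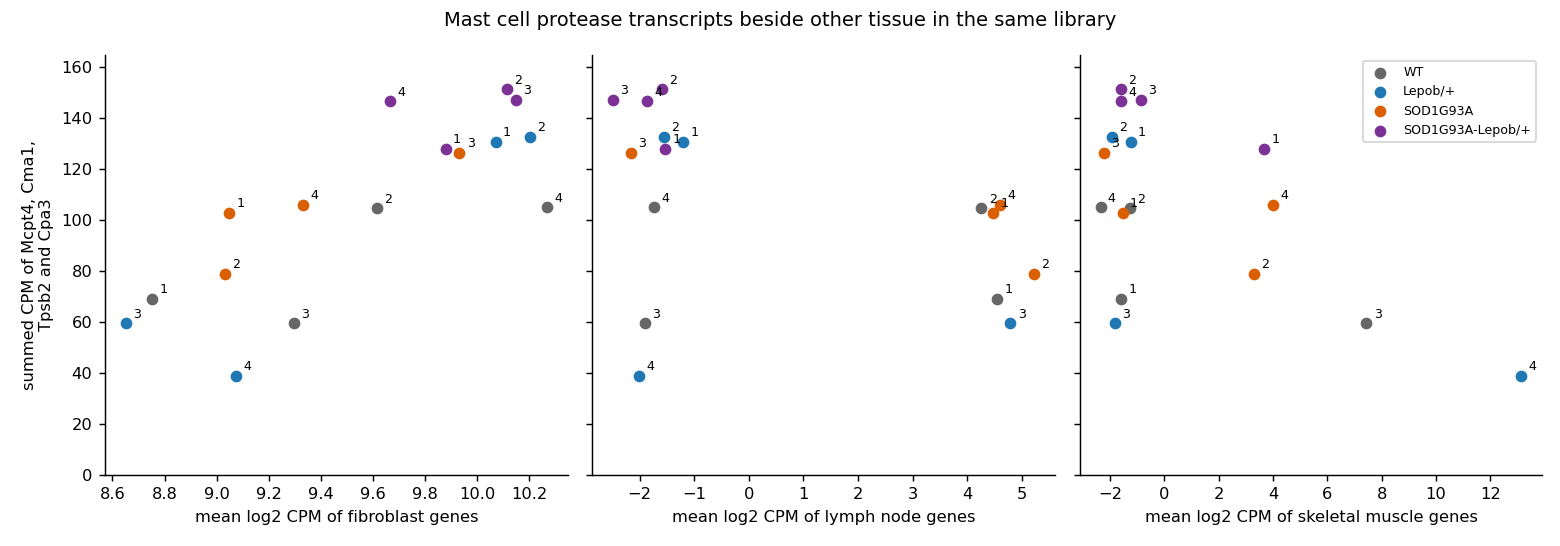
Summed CPM of Mcpt4, Cma1, Tpsb2 and Cpa3 (vertical axis) against the mean log2 CPM of fibroblast, lymph node and skeletal muscle genes (horizontal axes), with 1 point per library, coloured by genotype and labelled by replicate number. Points with more fibroblast RNA sit higher, the lymph node axis holds a group of 10 and a group of 6 libraries, and the lowest protease sum, 38.9 CPM, belongs to the library with the most muscle RNA.

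Of the neutrophil genes, S100a8, S100a9 and Retnlg had at most 119 counts in any library, and Csf3r had 183 to 567. S100a8 and S100a9 encode the subunits of calprotectin, which binds calcium and makes up much of the neutrophil cytosol. Retnlg is a resistin-like protein of mouse neutrophils, and Csf3r is the receptor of granulocyte colony-stimulating factor, found on monocytes and macrophages too. In GRCm38, S100a8 (ENSMUSG00000056054) lies at chr3:90668978-90670035 on the plus strand and S100a9 (ENSMUSG00000056071) at chr3:90692632-90695721 on the minus strand. Retnlg (ENSMUSG00000022651) lies at chr16:48872621-48874496 and Csf3r (ENSMUSG00000028859) at chr4:126024550-126044440, both on the plus strand. Some other genes of the cell were at or near 0, with 0 counts of Camp and Ngp in all 16 libraries and at most 3 counts of Ly6g, 7 of Mmp8, 11 of Mpo and 12 of Trem1 in any library. Others were present, with 410 to 3471 counts a library of Ltf and 438 to 2533 of Lcn2, which epithelial cells make too, 286 to 2185 of Il1r2, 55 to 968 of Padi4, 81 to 464 of Prtn3 and 20 to 89 of Elane.

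S100a8 was at 1.05, 0.546, 1.11 and 1.08 CPM in WT, at 0.664, 0.489, 0.899 and 0.566 CPM in Lepob/+, at 0.341, 0.452, 0.587 and 0.416 CPM in SOD1G93A, and at 1.44, 0.625, 2.27 and 0.506 CPM in SOD1G93A-Lepob/+, from 16 to 100 counts a library. SOD1G93A was the lowest genotype and overlapped every other, and the highest value belonged to the library labelled SOD1G93A-Lepob/+ replicate 3. SOD1G93A against WT gave S100a8 a log2 fold change of -1.07 (SE 0.43, interval -2.001 to -0.141, unadjusted p = 0.0269, adjusted p = 0.998 by edgeR), the only member with an unadjusted p under 0.05 in that comparison, where 2.56% of all genes had one and 0.917% were lower. The value for SOD1G93A-Lepob/+ against SOD1G93A was 1.42 (SE 0.44, interval 0.49 to 2.36, unadjusted p = 0.0055, adjusted p = 0.261 by edgeR and 0.0271 by limma's voom, which called 31.5% of all genes), again the only member, against 16.5% of all genes in either direction and 4.19% higher. The interaction was 1.96 (SE 0.61, unadjusted p = 0.00632, adjusted p = 0.564), 1 of 10 members against 7.98% of all genes. Without the library labelled SOD1G93A-Lepob/+ replicate 3, S100a8 differed by 0.93 from SOD1G93A (SE 0.39, unadjusted p = 0.0345), the interaction was 1.46 (SE 0.54, unadjusted p = 0.0177), and the difference of SOD1G93A-Lepob/+ from WT went from 0.35 (SE 0.42) to -0.14 (SE 0.39). The unadjusted p of SOD1G93A against WT passed 0.05, up to 0.0650, when any of WT replicates 1, 3 and 4 or of SOD1G93A replicates 1 and 4 was left out, and members with a p under 0.05 were then 0. Red blood cell genes differed in the same directions, with 5 of 5 lower in SOD1G93A than in WT and 5 of 5 higher in SOD1G93A-Lepob/+ than in SOD1G93A, each at an unadjusted p under 0.05, and sums of 719 to 1297 CPM (WT), 376 to 1105 CPM (Lepob/+), 317 to 747 CPM (SOD1G93A) and 705 to 1356 CPM (SOD1G93A-Lepob/+). Their part in the S100a8 values was not tested.

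S100a9 was at 1.03, 1.12, 0 and 1.00 CPM in WT, at 0.463, 0.758, 0.267 and 0.566 CPM in Lepob/+, at 0.917, 0.813, 0.121 and 0.369 CPM in SOD1G93A, and at 0.797, 0.575, 0.794 and 0.590 CPM in SOD1G93A-Lepob/+. The 0 counts in WT replicate 3 allow up to 3 counts, or 0.0775 CPM. All genotypes overlapped, no comparison gave S100a9 an unadjusted p under 0.05, and its intervals were wide, as in SOD1G93A against WT (-0.51, interval -2.25 to 1.23). Although the subunits work as a pair, S100a8 and S100a9 RNA did not follow each other over the 16 libraries (r = -0.11, permutation p = 0.702, adjusted 0.854, and rho = -0.06, permutation p = 0.813, adjusted 0.927, with r = -0.36 without 2 libraries). Their ratio of counts ranged from 0.372 to 4.86 over the 15 libraries with both, a coefficient of variation of 83.4%, against the 10.8% of the chymases.

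**Figure D5:**
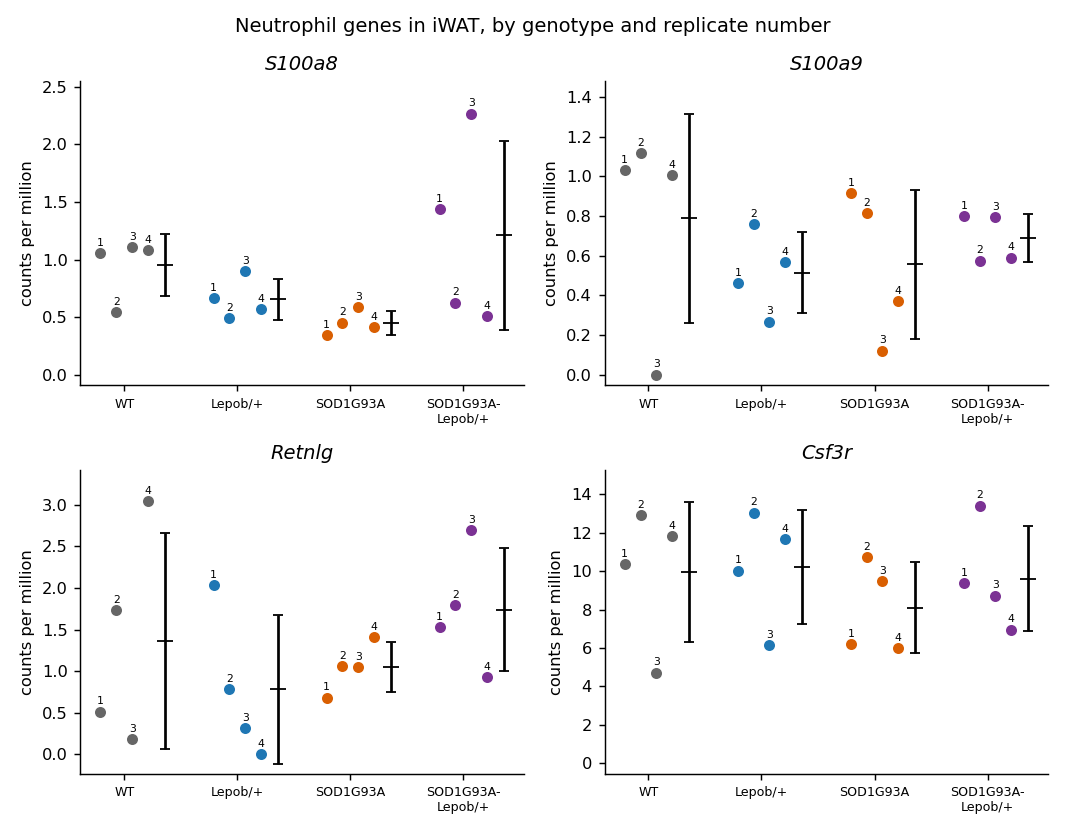
Level of each neutrophil gene in CPM (vertical axis, linear) by genotype (horizontal axis), with 1 point per library labelled by its replicate number and bars for the mean ± SD of 4 libraries. S100a8 sits at 0.341 to 0.587 CPM in SOD1G93A, and its highest point, 2.27 CPM, is SOD1G93A-Lepob/+ replicate 3.

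Retnlg was at 0.516, 1.73, 0.181 and 3.04 CPM in WT, at 2.03, 0.782, 0.316 and 0 CPM in Lepob/+, at 0.682, 1.06, 1.05 and 1.41 CPM in SOD1G93A, and at 1.53, 1.80, 2.70 and 0.927 CPM in SOD1G93A-Lepob/+. The 0 counts in Lepob/+ replicate 4 allow up to 0.0997 CPM, and WT replicates 3 and 4 held nearly the whole range of the gene. Csf3r was at 10.4, 12.9, 4.73 and 11.8 CPM in WT, at 10.04, 13.1, 6.15 and 11.7 CPM in Lepob/+, at 6.20, 10.7, 9.50 and 5.98 CPM in SOD1G93A, and at 9.36, 13.4, 8.73 and 6.97 CPM in SOD1G93A-Lepob/+. Neither gene differed between genotypes beyond its spread. The log2 fold change of SOD1G93A-Lepob/+ against WT was 0.35 for Retnlg (SE 0.91, interval -1.61 to 2.31) and -0.05 for Csf3r (SE 0.33, interval -0.75 to 0.65), and the interval of Retnlg was the wider by far.

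Over the 16 libraries Retnlg had higher correlations with the mast cell proteases than with the other neutrophil genes. Its r with the 4 proteases was 0.80 to 0.88 and its rho 0.55 to 0.64 (permutation p of 9e-05 to 0.00028 for r, adjusted 0.000579 to 0.00126, and of 0.0101 to 0.0290 for rho, adjusted 0.0389 to 0.0931). Without 2 libraries r was 0.62 to 0.64, in the lymph node poor libraries 0.88 to 0.92 and in the rich ones 0.72 to 0.85. With S100a8, S100a9 and Csf3r its r was 0.16, 0.34 and 0.19, and without 2 libraries -0.097, 0.25 and 0.42. The difference between its correlations with the proteases and with these genes was not tested. Retnlg had 0 counts in Lepob/+ replicate 4, the library with the lowest protease sum. Retnlg also correlated with eosinophil genes (r = 0.84, permutation p = 0.00067, adjusted 0.0134, and rho = 0.64, permutation p = 0.00829, adjusted 0.0663), which fell to r = 0.39 without 2 libraries. Csf3r correlated with S100a9 (r = 0.61, permutation p = 0.00928, adjusted 0.0348, and rho = 0.47, permutation p = 0.0693, adjusted 0.208, with r = 0.51 without 2 libraries) and with macrophage genes (r = 0.68, permutation p = 0.00406, adjusted 0.0424, and rho = 0.69, permutation p = 0.00382, adjusted 0.0402, with r = 0.55 without 2 libraries). Most like the mean of the 4 neutrophil genes were Fn1 (r = 0.86), Slc39a6 (r = 0.84), Slc41a2 (r = 0.84), Rybp-ps (r = 0.83) and Plxna3 (r = 0.83), none of them a gene of the lists of neutrophils.

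Of 19 further neutrophil genes, 13 could be tested. In SOD1G93A against WT, 10 of the 13 had lower values and 3 higher ones (median -0.43 on the log2 scale), and 1 of the lower genes had an unadjusted p under 0.05, where 0.917% of all genes were lower at that p. In SOD1G93A-Lepob/+ against SOD1G93A, 8 were higher and 5 lower, with a median of 0.61, and 4 and 3 of them had an unadjusted p under 0.05, where 4.19% of all genes were higher and 12.3% lower at that p. Cxcr2, the receptor that draws neutrophils to tissue, had 0 counts in all 4 SOD1G93A-Lepob/+ libraries and 0 to 219 counts elsewhere, and its mean was 2.33 ± 1.98 CPM in SOD1G93A, so that no fitted fold is given. Asprv1 (-3.60, SE 0.95, unadjusted p = 0.00203) and Pglyrp1, a granule protein that binds bacterial walls (-2.60, SE 0.93, unadjusted p = 0.0140), had lower values too. In the same comparison the lymph node list was lower in 8 of 8 genes (median -7.06 on the log2 scale), B cell genes in 8 of 8 (-6.81) and T cell genes in 10 of 10 (-5.86), and their part in these 3 values was not tested. Mmp9, a gelatinase that other cells make as well, was higher by 0.90 (SE 0.33, unadjusted p = 0.0154), at 62.4 ± 7.18 CPM against 33.5 ± 8.78 CPM (SD, n = 4), and Cxcr2, Asprv1, Pglyrp1 and Mmp9 each had an adjusted p of 0.261 by edgeR. Of 8 granule protein genes, 4 could be tested, and all 4 were higher in that comparison, Prtn3 with the smallest p (0.86, SE 0.38, unadjusted p = 0.0407, adjusted p = 0.288). Of 8 growth factors and attractants of neutrophils, 4 could be tested. In SOD1G93A-Lepob/+ against SOD1G93A, 2 of them were higher and 2 lower, from -1.03 to 1.08 on the log2 scale. Csf3, the ligand of Csf3r, was at 0.921 ± 0.444 CPM in SOD1G93A-Lepob/+ against 0.472 ± 0.141 CPM in SOD1G93A (0.96, SE 0.42, unadjusted p = 0.0372, adjusted p = 0.280), while Csf3r itself differed by 0.25 (SE 0.33).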

How the data were processed

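Inguinal white fat RNA from 16 mice was sequenced as paired reads. The authors filtered reads with fastp, aligned them to mm10 with HISAT2 2.1.0, kept uniquely mapped reads and deposited raw counts per gene from featureCounts 2.0.2. The strand setting and the annotation release are not given in the sources used here. Of the 54752 genes of the table, 54723 had a name.

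From the counts, edgeR 4.0.16 in R 4.3.3 tested 19736 genes (filterByExpr, minimum count 10, minimum total 15) with TMM scaling and a robust quasi-likelihood F test on 4 genotypes, with p-values adjusted by Benjamini-Hochberg over all genes at a threshold of 0.05. Total counts of 36795376 to 61886313 a library set the precision, and a count of 0 allows up to 3. Alternatives were DESeq2 1.42.0 size factors, DESeq2 itself on all or the compared genotypes, limma 3.58.1 voom with quality weights, filters, a replicate block, lymph node genes as covariate, lymph node poor libraries, and leaving out libraries. Those for leaving out single libraries from the correlations were chosen after seeing the data. Only the edgeR fit was tested on simulated counts, for SOD1G93A-Lepob/+ against SOD1G93A. Those counts held no tissue differences between libraries such as lymph node or muscle RNA. Correlations used log2 CPM with a prior count of 1 and 100000 permutations, two-sided.

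Named were all 10 members, from each other list up to 4 genes ranked by p within a comparison, defining markers of other cells, and the 5 genes most like each set's mean. Members and lists were chosen with earlier results of these data known. Promoters came from RefSeq (GRCm38.p6) and gene positions from GENCODE on GRCm38.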

Additional observations from a re-analysis of the deposited data

Results flagged for a closer look

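In 2 of the 40 groups of 4 libraries, formed by 10 genes in 4 genotypes, a library lay far from the others, and chance gives this in about 1 in 20 groups. S100a8 in WT replicate 2 was at 0.546 CPM, below the other WT libraries at 1.05 to 1.11 CPM. S100a9 in WT replicate 3 was at 0 CPM, below the other WT libraries at 1.00 to 1.12 CPM, and its 0 counts allow up to 0.0775 CPM.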

How the results depend on the processing

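Counts of members called, or with an unadjusted p under 0.05, are given where they changed by over 1.5 times, each with the share of all genes in that fit in parentheses. For SOD1G93A against WT, 1 member became 0 in lymph node poor libraries (1.63%). For SOD1G93A-Lepob/+ against SOD1G93A, 0 called became 1 with DESeq2 on those genotypes (6.06%) and 2 with voom (31.5%), and 1 with a p under 0.05 became 4 with edgeR on those genotypes (21.3%), 4 with that DESeq2 fit (17.2%), 4 with voom (44.2%), 0 in lymph node poor libraries (2.3%) and 2 without both libraries that stand apart (15%). Against Lepob/+, 2 became 1 with the stricter filter (8.04%), with edgeR (5.49%) or DESeq2 (3.95%) on those genotypes and without both libraries (4.7%), and 0 with voom (6.57%), with the lymph node covariate (9.29%) and in lymph node poor libraries (6.32%). Against WT, 0 called became 2 with DESeq2 on those genotypes (1.22%), and 3 with a p under 0.05 became 1 with the replicate block (2.71%), 0 with the lymph node covariate (3.52%), 0 in lymph node poor libraries (2.46%) and 5 without both libraries (4.22%). For the interaction, 1 became 0 in lymph node poor libraries (1.87%). For the average SOD1G93A difference, 3 became 0 with voom (6.26%), 0 in lymph node poor libraries (2.26%) and 1 without both libraries (2.18%). For the average Lepob/+ difference, 0 called became 1 with voom (20.5%), and 0 with a p under 0.05 became 5 with voom (38.8%) and 1 without both libraries (5.57%). The cause was not tested, beyond the fewer libraries of some fits.

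Leaving out 1 library at a time gave 0 called throughout by edgeR, and counts with a p under 0.05 of 0 to 0 for Lepob/+ against WT, 0 to 1 for SOD1G93A against WT, 1 to 2 for SOD1G93A-Lepob/+ against SOD1G93A (2 without Lepob/+ replicate 4), 1 to 5 against Lepob/+, 0 to 4 against WT, 1 to 1 for the interaction, 0 to 4 for the average SOD1G93A difference and 0 to 2 for the average Lepob/+ difference (2 without Lepob/+ replicate 4). For these counts, and for those given above without a single library, the share of all genes in the same refit is not given. They therefore show only how the count depends on single libraries. Correlated pairs numbered 10 to 14 against 13. In each of the 3 comparisons of SOD1G93A-Lepob/+ with another genotype, all 160 refitted values of the 6 mast cell members, over members and settings together, were positive, while over all members and comparisons 81 of 2076 such values had the other sign. The refits reuse the same libraries and the proteases varied together, so neither count stands for separate results.

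Samples share only a replicate number. Deviations of log2 CPM from the genotype means were correlated over all genes tested for 24 same-numbered pairs. Of these, 5 correlated above 0.1 and 8 below -0.1, with r from -0.694 to 0.52. The replicate block gave Cpa3 0.88 against WT (unadjusted p = 0.0418 by edgeR). Depth limits the receptor chains and S100a8, S100a9 and Retnlg, at 0 to 119 counts a library.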

Other observations

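Of 5 ratios among the proteases, 2 set SOD1G93A apart, a pattern chosen after its values were seen and not tested. The ratio of Mcpt4 to Tpsb2 counts was 1.37 to 1.43 in the 4 SOD1G93A libraries, above the 1.02 to 1.22 of WT, the 0.872 to 1.25 of Lepob/+ and the 1.21 to 1.34 of SOD1G93A-Lepob/+. Tpsb2 to Cma1, a tryptase to a chymase, was 0.835 to 0.914 in SOD1G93A, 0.932 to 0.983 in SOD1G93A-Lepob/+, 0.994 to 1.34 in WT and 1.03 to 1.27 in Lepob/+. On this ratio no library with the transgene overlapped a library without it, by a narrow margin. The nearest values were 0.983 in SOD1G93A-Lepob/+ replicate 2 and 0.994 in WT replicates 2 and 3. How many other pairs of genes separate the libraries in this way was not counted. The other ratios overlapped between genotypes. Mcpt4 to Cma1 was 1.01 to 1.54 in the libraries of WT, 1.11 to 1.49 in those of Lepob/+, 1.14 to 1.27 in those of SOD1G93A and 1.16 to 1.29 in those of SOD1G93A-Lepob/+. Cpa3 to Cma1 was 0.610 to 0.727, 0.653 to 0.854, 0.649 to 0.845 and 0.663 to 0.765 in the same order. Cpa3 to Tpsb2 was 0.530 to 0.712, 0.606 to 0.714, 0.711 to 0.940 and 0.712 to 0.804, also in that order. A ratio within a library shows unequal change and not which gene changed.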
